A study of Mus musculus with 5 samples.

Results

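The ANTP class of homeobox genes holds the NKL and the Hox-like genes. The present account concerns 50 ANTP genes that lie outside the Hox and Dlx clusters, of which 38 are NKL and 12 are Hox-like genes. They were chosen by gene family from 22254 protein-coding genes of the GENCODE vM1 mouse annotation. A RING1B peak was assigned to a gene when it overlapped the gene body or lay within 5000 bases of the gene start. RING1B chromatin immunoprecipitation and sequencing (ChIP-Seq) was performed in mouse embryonic fibroblasts (MEFs) isolated from an embryo with loxP sites in the EED gene, and the 3 lines compared here carried these floxed EED alleles. The control was the parental line. The EZHIP line was transduced with a lentivirus that expressed human EZHIP, and the H3.3 K27M line with a lentivirus that expressed this mutant histone. The remaining groups were an H3.3 K27R line and an EED deletion line, which was a single clone obtained after Cre treatment, and their peaks were not analysed here.

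RING1B is the catalytic subunit of Polycomb Repressive Complex 1 (PRC1), which places ubiquitin on histone H2A. PRC1 is recruited in part by H3K27me3, the mark that Polycomb Repressive Complex 2 (PRC2) writes, and in part by unmethylated CpG islands. EZHIP and H3 K27M both inhibit PRC2. ANTP genes encode transcription factors that give cells of the embryo their position and identity, and in cells that do not use them their CpG-rich starts are classic sites of Polycomb binding. RING1B peaks at these genes were set against each other in the 3 lines to ask where PRC1 was found when PRC2 was inhibited.

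There was 1 library per group, so no spread between replicates could be measured and no test was made. Every comparison describes these libraries as called and nothing further. Peaks numbered 821 for control, 311 for EZHIP and 286 for H3.3 K27M, with no score or read count, and the depth behind them is unknown. The study reports that RING1B was unchanged in number and general distribution in both transduced lines. The lists used here differ in peak number, and the reason was not tested. The narrowest peak was 1199 bases wide in the control list and 399 bases wide in the other lists, so a short stretch could be listed in the transduced lines and not in the control. Expression was not measured in these libraries, so the fibroblast label could not be checked on marker levels. Of 15 genes that mark or serve fibroblasts, 1, Pdgfra, had a control peak (6.67%, against 3.80% of all protein-coding genes), a count too small to bear on the label.

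RING1B peaks were found at most of the 50 genes in control MEFs. A control peak was present at 41 of them (82.0%, 95% Wilson interval 69.2 to 90.2%), against 3.80% of all protein-coding genes. An EZHIP peak was present at 24 (48.0%, 34.8 to 61.5%), against 1.30% of protein-coding genes, and an H3.3 K27M peak at 33 (66.0%, 52.2 to 77.6%), against 1.20%. These intervals cover counting error only. No member had a peak in a transduced line without one in the control, whereas 15.2% of the 289 protein-coding genes with an EZHIP peak and 9.77% of the 266 with an H3.3 K27M peak had no control peak. Hmx2 and Hmx3 lie side by side and shared 1 peak in each line, so the counts rest on 40, 23 and 32 separate peaks. The order of the lines, with most members in the control list and fewest in the EZHIP list, was the same for NKL genes (32, 18 and 25 of 38 for control, EZHIP and H3.3 K27M) and for Hox-like genes (9, 6 and 8 of 12).

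**Figure D1:**
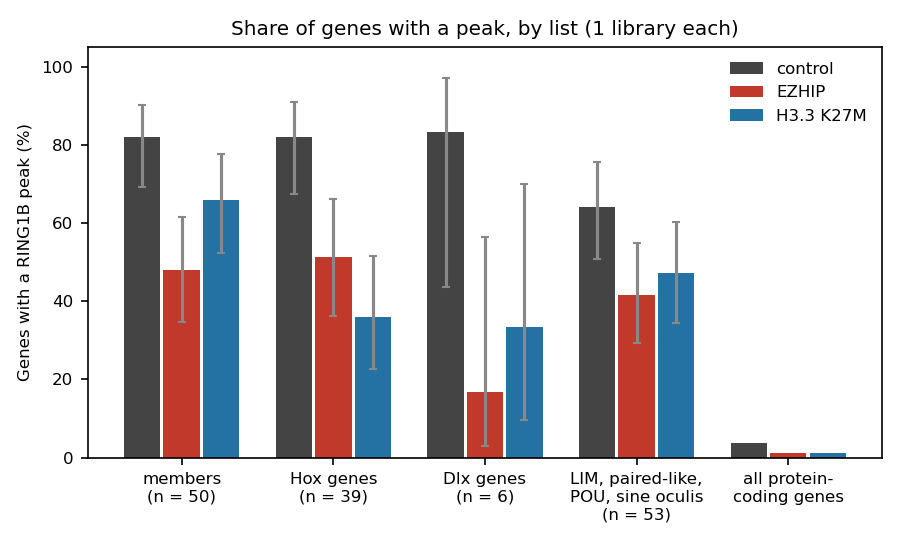
Share of genes with a RING1B peak (%, vertical axis) among the 50 members, 3 comparison lists and all protein-coding genes, with 1 bar per line. Error bars are 95% Wilson intervals and cover counting error only. They treat genes that share a peak as separate. The Hox bars rest on 10 control, 6 EZHIP and 5 H3.3 K27M peaks, so their intervals are too narrow. Among members the H3.3 K27M bar (66.0%) stands above the EZHIP bar (48.0%), and among Hox genes it stands below.

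The members fell into 5 classes by the lines in which a peak was found. Peaks in all 3 lines were found at 23 members, against 0.755% of protein-coding genes: Barhl2, Barx1, Bsx, Emx1, En2, Evx1, Gbx2, Gsx2, Hmx2, Hmx3, Lbx1, Mnx1, Nkx2-1, Nkx2-3, Nkx2-4, Nkx2-5, Nkx3-2, Nkx6-1, Pdx1, Tlx1, Tlx2, Tlx3 and Vax2. Peaks in the control and H3.3 K27M lines, and not in the EZHIP line, were found at 10, against 0.324% of protein-coding genes: Barhl1, Barx2, Cdx2, En1, Gbx1, Gsx1, Hmx1, Msx1, Nkx2-6 and Vax1. Meox2, a gene of the somites, was the 1 member with control and EZHIP peaks alone, a class that held 0.346% of protein-coding genes. A control peak and no other was found at 7 members, against 2.37% of protein-coding genes: Dbx1, Dbx2, Hhex, Lbx2, Msx2, Nkx1-2 and Nkx2-2. The last 9, namely Cdx1, Cdx4, Emx2, Hlx, Meox1, Nkx2-9, Nkx6-2, Nkx6-3 and Noto, had no peak in any line, as did 96.0% of protein-coding genes.

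These classes differed in the width of the control peak. Median control coverage was 19199 bases (10399 to 35399) where all 3 lines had a peak, 10299 bases (4399 to 24199) where the control and H3.3 K27M lines did, and 3399 bases (1599 to 9399) where the control alone did. The 250 bases before the gene start are shown for the member with the most control bases in each of the 4 classes with a control peak as an example of the sequence at that gene, and 1 gene does not stand for its class. They were read from NCBIM37, the assembly behind mm9, on the strand of the gene, with CpG in capitals.
Vax2 (peaks in all 3 lines), chr6:83661008-83661257, + strand: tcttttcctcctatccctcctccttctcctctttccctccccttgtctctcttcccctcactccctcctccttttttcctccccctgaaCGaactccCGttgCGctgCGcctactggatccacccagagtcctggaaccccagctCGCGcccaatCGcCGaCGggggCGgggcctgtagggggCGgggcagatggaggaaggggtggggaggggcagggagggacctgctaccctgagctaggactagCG
Cdx2 (control and H3.3 K27M), chr5:148118847-148119096, - strand: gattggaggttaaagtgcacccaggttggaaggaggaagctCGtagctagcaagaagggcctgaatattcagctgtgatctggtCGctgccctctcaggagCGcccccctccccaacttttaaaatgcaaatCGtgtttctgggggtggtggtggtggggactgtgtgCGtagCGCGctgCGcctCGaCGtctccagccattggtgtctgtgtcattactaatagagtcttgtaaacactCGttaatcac
Meox2 (control and EZHIP), chr12:37834877-37835126, + strand: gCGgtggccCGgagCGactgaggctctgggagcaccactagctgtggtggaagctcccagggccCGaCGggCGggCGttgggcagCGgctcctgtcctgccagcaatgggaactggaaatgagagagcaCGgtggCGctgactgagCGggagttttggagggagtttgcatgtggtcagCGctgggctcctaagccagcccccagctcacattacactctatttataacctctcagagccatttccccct
Nkx2-2 (control alone), chr2:147019980-147020229, - strand: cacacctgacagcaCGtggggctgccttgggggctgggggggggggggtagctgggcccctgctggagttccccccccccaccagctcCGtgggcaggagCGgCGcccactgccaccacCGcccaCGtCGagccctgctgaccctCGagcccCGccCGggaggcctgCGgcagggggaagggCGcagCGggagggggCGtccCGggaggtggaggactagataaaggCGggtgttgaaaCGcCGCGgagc

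The Vax2 stretch held 12 CpG and lay inside the control peak, and neither transduced line covered it. The Cdx2 stretch held 11 CpG and lay inside the control and H3.3 K27M peaks. The Meox2 stretch held 12 CpG and lay partly inside the control peak, which began at position -126 relative to the start, and outside the EZHIP peak. The Nkx2-2 stretch held 19 CpG and lay outside every peak, as the control peak began 980 bases past the start. Nkx2-2 had the highest CpG around the start of the 7 members with a control peak alone, 6.5 per 100 bases against a median of 4.7.

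The members that pattern the spinal cord and hindbrain had a control peak at 16 of 18 genes, an EZHIP peak at 9 and an H3.3 K27M peak at 13. Lbx1, which specifies dorsal spinal interneurons and migrating limb muscle precursors, had 26399 bases covered in control, 18199 in EZHIP and 20999 in H3.3 K27M cells. Mnx1, the motor neuron gene also known as Hb9, was covered over 25199, 10599 and 20399 bases in the same order. At Evx1, a gene of ventral commissural interneurons, the 3 values were 19199, 10399 and 13199 bases. These members kept broad peaks in both transduced lines. Barhl2, a gene of dorsal commissural neurons and retina, went from 29199 bases in the control to 1399 in the EZHIP and 21599 in the H3.3 K27M line. Gsx2, which acts in the ventral telencephalon and dorsal spinal cord, went from 19399 to 599 and 10199 bases. En2, a gene of the midbrain-hindbrain region, went from 20399 to 3799 and 18399 bases. At these 3 genes the H3.3 K27M peak was broad and the EZHIP peak was a small remnant.

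Nkx6-1, which specifies ventral neural tube progenitors, had 22599 bases covered in control, 4999 in EZHIP and 11599 in H3.3 K27M cells. Tlx3, which directs excitatory fate in the dorsal horn, was covered over 12799, 5599 and 11999 bases. Gbx2, a gene on the hindbrain side of the midbrain-hindbrain boundary, was covered over 12999, 1799 and 3599 bases, and so was narrow in both transduced lines. En1, a gene of the midbrain-hindbrain region and of V1 interneurons, had 21199 bases in the control, none in the EZHIP line and 5999 in the H3.3 K27M line. Barhl1 had 8999 bases in the control and 2399 in the H3.3 K27M line. Gsx1, a relative of Gsx2, had 5999 and 2199 bases in these lines, and Gbx1 had 4399 and 2199. The 3 genes had no EZHIP peak. Nkx2-2, a gene of ventral neural progenitors, was covered over 9399 bases in the control only, the widest peak among the 7 members with a control peak alone. Dbx1 and Dbx2, which mark interneuron progenitors in the middle of the neural tube, had control peaks of 5399 and 3399 bases and no others.

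Among the genes of the forebrain, eye and inner ear, 9 of 10 had a control peak, 7 an EZHIP peak and 9 an H3.3 K27M peak. Vax2, a gene of the ventral retina, had the widest control coverage of all members, 35399 bases, and its assigned peaks covered 4799 bases with EZHIP and 7599 with H3.3 K27M. Its control peak held a further upstream peak of each transduced line, which lay more than 5000 bases from the start and was not assigned, and with these 10398 and 13998 bases of the control peak were covered. No other member had more than 1 peak of a transduced line in its control peak. Its relative Vax1, a gene of the ventral forebrain and optic nerve, was covered over 14799 bases in the control and 10799 in the H3.3 K27M line, and had no EZHIP peak. Nkx2-1, which specifies ventral forebrain, thyroid and lung, was covered over 20399, 999 and 18199 bases in the control, EZHIP and H3.3 K27M lines. Nkx2-1 and Vax2 thus resembled each other in the EZHIP line by losing most of the peak, and differed in the H3.3 K27M line. Hmx2 and Hmx3, which build the vestibular inner ear, shared a peak of 17999, 11999 and 15799 bases. Hmx1, a gene of the eye and outer ear, was covered over 14799 bases in the control and 4399 in the H3.3 K27M line, and had no EZHIP peak.

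The cortical gene Emx1 was covered over 12599, 599 and 5399 bases, and Bsx, a gene of the hypothalamus, over 12599, 399 and 9999 bases. From equal control coverage, both came down to the shortest EZHIP stretches of this group of genes. Nkx2-4, also of the hypothalamus, was covered over 10399, 7599 and 6999 bases, and was the 1 member of the 23 with peaks in all 3 lines with more EZHIP than H3.3 K27M coverage.

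Of the genes of the gut, pancreas, liver and spleen, 6 of 9 had a control peak, 4 an EZHIP peak and 5 an H3.3 K27M peak. Nkx2-3, which is needed for the spleen and gut, had 28799 bases covered in control, 17799 in EZHIP and 23799 in H3.3 K27M cells. Tlx1, a gene without which no spleen forms, was covered over 20199, 4599 and 17399 bases. Barx1, a gene of the stomach mesenchyme, was covered over 16799, 1799 and 11799 bases. Pdx1, the master gene of pancreas development, was covered over 13799, 1399 and 9199 bases. The intestinal gene Cdx2 had the widest control peak of any member without an EZHIP peak, 24199 bases, and kept 16199 bases in the H3.3 K27M line. Hhex, a gene of the liver and thyroid, had a control peak of 2399 bases and no other.

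The genes of mesoderm, heart, skeleton and other tissues had a control peak at 10 of 13, an EZHIP peak at 4 and an H3.3 K27M peak at 6. Nkx2-5, the cardiac gene, was covered over 21999, 11199 and 15599 bases in the control, EZHIP and H3.3 K27M lines. Nkx3-2, a gene of the axial skeleton, was covered over 16599, 799 and 12199 bases. Tlx2, a gene of enteric neurons, was covered over 11999, 1799 and 2399 bases and was thus narrow in both transduced lines. Msx1, a gene of the face and teeth, stood apart with 11999 bases in the H3.3 K27M line against 11599 in the control, and no EZHIP peak. Its relative Msx2, a gene of the skull, had a control peak of 3599 bases and no other. Barx2 had 5999 bases in the control and 4399 in the H3.3 K27M line, and Nkx2-6, a gene of the pharynx and heart, had 5999 and 1199. Neither had an EZHIP peak. Meox2 had 3199 bases in the control and 1599 in the EZHIP line. Nkx1-2 and Lbx2 had control peaks of 1799 and 1599 bases alone.

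The 9 members without a peak lay far from any. The nearest control peak to the start was 68113 bases away at Meox1, 73530 bases away at Nkx2-9 and 228281 bases away at Noto. It was 254138 bases away at Cdx4, 261781 bases away at Emx2 and up to 6977697 bases away, at Nkx6-2. The starts of these genes held a median of 4.4 CpG per 100 bases in the 1000 bases around them, against 4.1 over all protein-coding genes and 5.65 over all members. The median was 4.7 where the control alone had a peak, 6.15 where the control and H3.3 K27M lines did and 6.5 where all 3 lines did, against 6.6 over the 845 protein-coding genes with a control peak. The groups overlapped, since Cdx1 reached 10.3 and Nkx6-2 reached 10, and Tlx1, with peaks in all 3 lines, had 0.6.

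**Figure D2:**
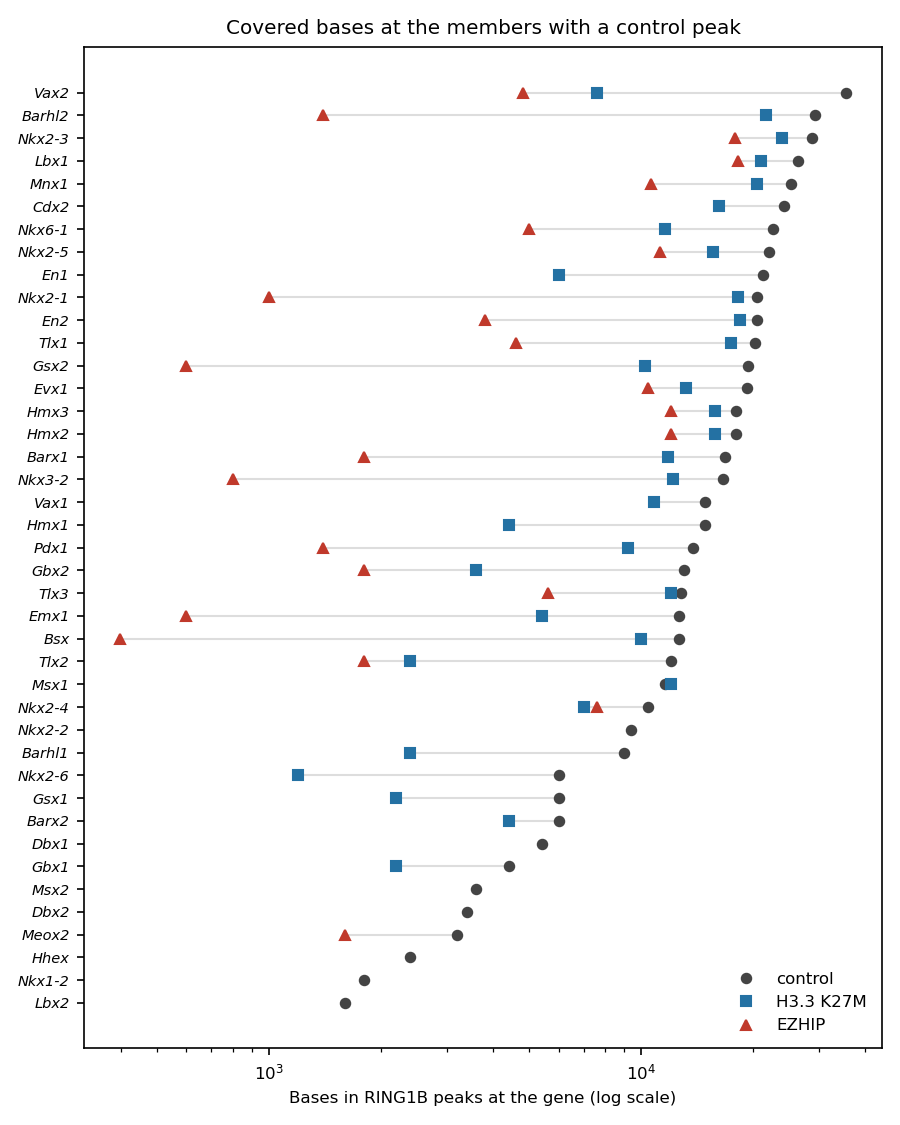
Bases in RING1B peaks (horizontal log axis) at the 41 members with a control peak, ordered by control coverage, with 1 symbol per line and no symbol where a line had no peak. Peaks assigned to the member are counted. The EZHIP triangles lie left of the H3.3 K27M squares at every member with both except Nkx2-4.

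Members kept their peaks more often in the H3.3 K27M than in the EZHIP line. Of the 41 members with a control peak, 24 (58.5%) had an EZHIP peak, against 29.0% of the 845 protein-coding genes with a control peak. An H3.3 K27M peak was found at 33 (80.5%), against 28.4%. A control peak with neither was found at 7 of the 41, against 62.5% of the 845 genes. The 845 genes include the members, and among the other 804 the EZHIP and H3.3 K27M shares were 27.5% and 25.7%. Control peaks at members were wider than elsewhere, with a median of 13399 against 3199 bases. Control peaks of 10000 bases or more were kept more often than narrower ones, at members and elsewhere. Kept here means any overlap, which a wide peak meets more easily. Within 10000 to under 20000 bases, 12 of 15 peaks at members (80.0%) and 55 of 86 elsewhere (64.0%) overlapped an EZHIP peak, and 15 of 15 and 64 of 86 (74.4%) overlapped an H3.3 K27M peak. From 20000 bases, 10 of 12 peaks at members (83.3%) and 40 of 46 elsewhere (87.0%) overlapped an EZHIP peak, and 12 of 12 and 41 of 46 (89.1%) an H3.3 K27M peak. From 5000 to under 10000 bases, 0 of 6 peaks at members and 43 of 127 elsewhere (33.9%) overlapped an EZHIP peak, and 4 of 6 and 56 of 127 (44.1%) an H3.3 K27M peak. Below 5000 bases, the peak at Meox2 overlapped an EZHIP peak and that at Gbx1 an H3.3 K27M peak, of 7 at members, against 11.7% and 6.51% elsewhere. At like width the EZHIP shares were higher at members in 2 of the 4 width ranges and lower in the other 2, and the H3.3 K27M shares were higher at members in all 4, by less than without matching.

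The peaks that were kept were narrower, and more so in the EZHIP line. At 24 of 24 members the EZHIP coverage was below that of the control, as it was for 91.0% of protein-coding genes with both peaks. The median ratio of EZHIP to control bases was 0.204 (quartiles 0.0883 and 0.517, range 0.0309 to 0.731), against 0.417 over all protein-coding genes with both. H3.3 K27M coverage was below the control at 32 of 33 members, as for 90.4% of protein-coding genes with both, with a median ratio of 0.702 (quartiles 0.429 and 0.81, range 0.2 to 1.03), against 0.646 over all such genes. Msx1 was the exception. Of the 23 members with peaks in all 3 lines, 22 had fewer bases in the EZHIP than in the H3.3 K27M line, as did 70.2% of the 168 protein-coding genes with all 3 peaks. The median ratio of EZHIP to H3.3 K27M bases was 0.467 at members and 0.794 over all such genes. The 168 genes include the members. Over the 145 others the median ratio was 0.919, and 96 had fewer EZHIP than H3.3 K27M bases.

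The EZHIP ratio rested in part on very short peaks. When peaks of at least 1000 bases were used in every line, 19 members had an EZHIP peak and the median ratio was 0.421, against 0.588 over all protein-coding genes with both peaks at this setting. Bsx, Emx1, Gsx2, Nkx2-1 and Nkx3-2 dropped out, each with an EZHIP peak of under 1000 bases. With peaks of at least 5000 bases, 34 members had a control peak, 9 an EZHIP peak and 25 an H3.3 K27M peak.

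Hox genes differed from the members in the order of the transduced lines, and the other homeobox lists had the same order as the members. Of 39 Hox genes, 32 had a control peak, 20 an EZHIP peak and 14 an H3.3 K27M peak. The median ratio to control bases was 0.764 in the EZHIP and 0.742 in the H3.3 K27M line. Hox genes sit in clusters and share peaks, so these counts rest on 10 control, 6 EZHIP and 5 H3.3 K27M peaks. Of 53 LIM, paired-like, POU and sine oculis-type homeobox genes, 34, 22 and 25 had a control, EZHIP and H3.3 K27M peak, with median ratios of 0.459 and 0.698. Of 6 Dlx genes, the counts were 5, 1 and 2. The median EZHIP ratio of the members, 0.204, was the lowest of the lists with more than 1 gene behind it, whereas their H3.3 K27M ratio, 0.702, lay between those of the LIM and Hox lists. With peaks of at least 1000 bases, the EZHIP ratio was 0.421 for members, against 0.526 for the LIM list and 0.77 for Hox genes, whose values at this setting were added after the data were seen. These are descriptions of 1 library per line, and the differences between families were not tested. A further 5 ANTP genes outside the 50 had 2, 1 and 2 peaks.

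The position of the remaining peaks relative to the gene start also differed between the lines. A control peak covered the start at 36 of 41 members, and lay downstream of it at Dbx2, Hhex, Lbx2, Nkx1-2 and Nkx2-2. At all 24 members with an EZHIP peak the start lay in a control peak, and the EZHIP peak covered that start at 9 (37.5%), against 51.9% of protein-coding genes of this kind. At all 33 members with an H3.3 K27M peak the start lay in a control peak, and the H3.3 K27M peak covered it at 29 (87.9%), against 72.2%. The 9 starts in EZHIP peaks were those of Evx1, Gbx2, Hmx2, Lbx1, Mnx1, Nkx2-3, Nkx2-4, Tlx2 and Tlx3. The 4 starts outside H3.3 K27M peaks were those of Barhl1, Hmx1, Nkx2-6 and Vax2. When every annotated transcript start was allowed, the counts were 37, 9 and 29 in the control, EZHIP and H3.3 K27M lines, so alternative starts accounted for 1 control member and none in the other lines.

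**Figure D3:**
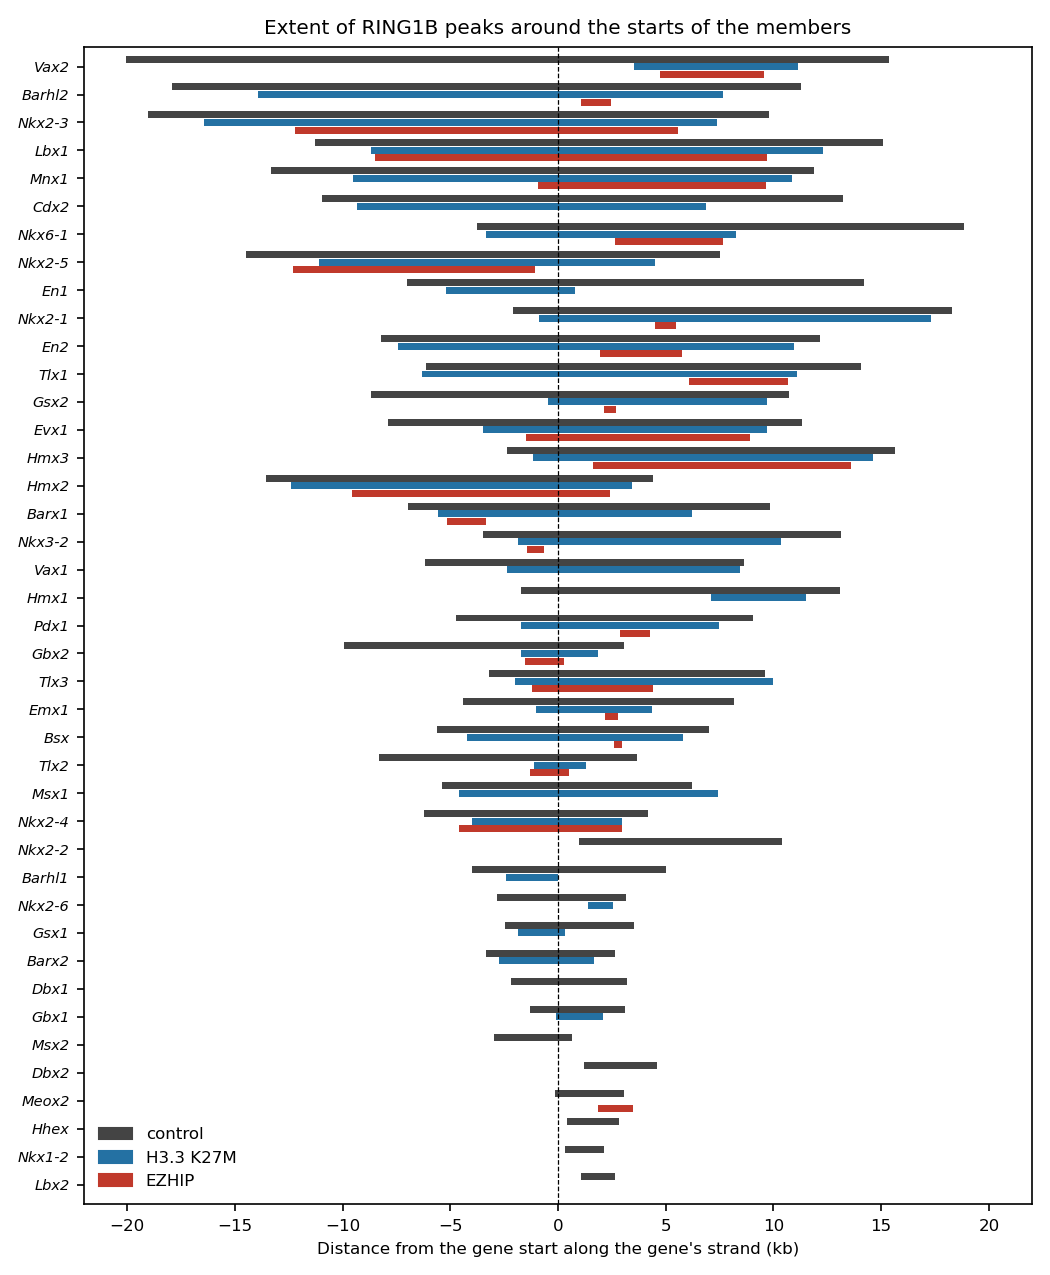
Extent of the assigned RING1B peaks at the 41 members with a control peak, as distance from the gene start along the strand of the gene (kb), ordered by control coverage, with 1 bar per line and the start as a dashed line. Most H3.3 K27M bars cross the dashed line (29 of 33), and most EZHIP bars do not (9 of 24).

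Of the 15 EZHIP peaks off the start, 12 lay downstream and 3, at Barx1, Nkx2-5 and Nkx3-2, upstream. Downstream stretches began 1070 bases past the start at Barhl2, 2646 at Nkx6-1 and 6075 at Tlx1. At Tlx1 the EZHIP peak ran from 6075 to 10673 bases past the start, inside a control peak that ran from position -6125 to position 14073 relative to the start. EZHIP peaks that missed the start were short, with a median of 1599 bases, against 10399 bases for those that covered it, so start coverage and peak width moved together. For H3.3 K27M the medians were 3399 and 11999 bases. Among peaks of at least 5000 bases, chosen as a setting after the data were seen, 7 of 9 members with an EZHIP peak and 24 of 25 with an H3.3 K27M peak had the start covered.

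At members, coverage in the transduced lines lay almost wholly within that of the control. The EZHIP peaks at members spanned 124777 bases, of which 99.7% lay in control peaks and 97.1% in H3.3 K27M peaks. The H3.3 K27M peaks spanned 350168 bases, of which 99.5% lay in control peaks and 34.6% in EZHIP peaks. Over all protein-coding genes with a control peak, 97.5% of EZHIP bases lay in control and 81.4% in H3.3 K27M peaks, and 98.0% of H3.3 K27M bases lay in control and 52.9% in EZHIP peaks. Over all protein-coding genes, those without a control peak included, 79.7% of EZHIP and 92.4% of H3.3 K27M bases lay in control peaks. Among genes with a control peak, nesting inside the control peaks was thus much the same, and the members stood further from the other genes in the overlap between the transduced lines. EZHIP peaks ended inside the control peak on both sides at 23 of 24 members, against 86.2% of protein-coding genes with 1 control and 1 EZHIP peak, with a median of 6600 bases lost upstream and 5000 downstream. H3.3 K27M peaks did so at 30 of 33 members, against 87.6% of the corresponding genes, with a median of 1800 bases lost upstream and 1600 downstream. The peaks that ran past a control edge were those at Meox2 for EZHIP, and at Msx1, Tlx1 and Tlx3 for H3.3 K27M.

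The CpG content of the kept and lost parts of the control peaks was then compared, since the rule that chose the genes used no sequence. In the H3.3 K27M line the kept part was denser in CpG than the lost part in 30 of 32 control peaks at members (93.8%), with medians of 3.5 and 1.57 CpG per 100 bases. In the EZHIP line it was denser in 12 of 23 (52.2%), with medians of 3.03 and 2.76. The densest 1000 bases of the control peak, judged by their centre, lay in the H3.3 K27M peak at 27 of 32 (84.4%), where a mean of 62.1% of the bases was kept. They lay in the EZHIP peak at 7 of 23 (30.4%), where a mean of 29.0% of the bases was kept. Over control peaks elsewhere the kept part was denser in 139 of 188 (73.9%) for H3.3 K27M and in 108 of 194 (55.7%) for EZHIP. The densest 1000 bases were kept in 71.3% of 195 control peaks elsewhere for H3.3 K27M, where a mean of 54.5% of the bases was kept, and in 50.8% of 199 for EZHIP, where a mean of 40.4% was kept.

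**Figure D4:**
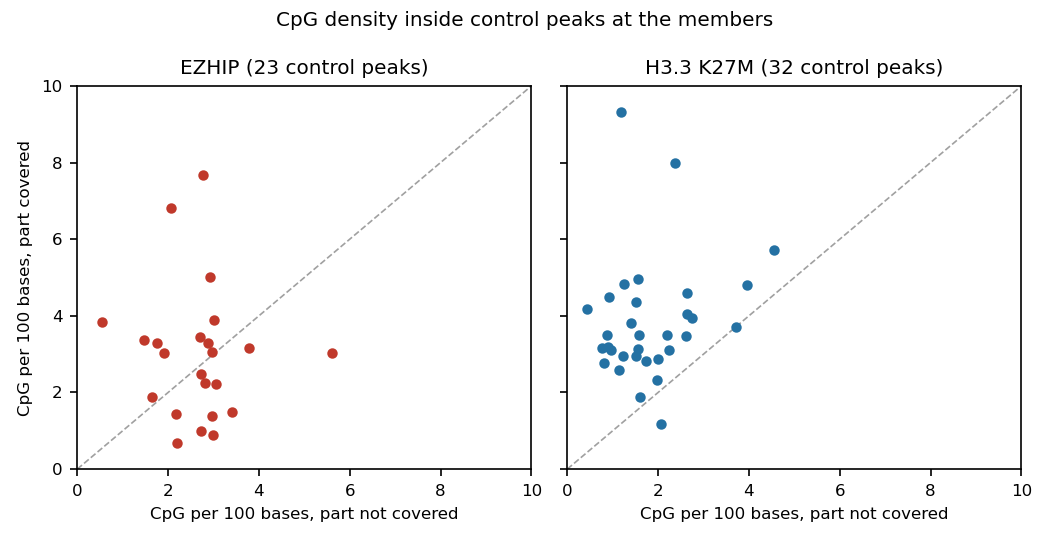
CpG per 100 bases in the part of each control peak at a member that the transduced line covered (vertical axis) and did not cover (horizontal axis), for the EZHIP (left) and H3.3 K27M (right) lines, with 1 point per control peak and equal density on the dashed line. Of the H3.3 K27M points 30 of 32 lie above the line, and of the EZHIP points 12 of 23.

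The EZHIP values are also given by covered width, counted over all EZHIP peaks inside the control peak, which puts Vax2 among the wider ones. Where EZHIP covered 5000 bases or more, a mean of 54.5% of the control peak was kept, and the kept part was denser in 7 of 9 control peaks, with medians of 3.29 and 1.9 CpG per 100 bases. Where it covered fewer, a mean of 12.6% was kept, and the kept part was denser in 5 of 14, with medians of 2.35 and 2.94. The densest 1000 bases lay in the EZHIP peak at 6 of the 9 control peaks with the wider coverage and at 1 of the 14 others. This split uses the EZHIP coverage itself, and a wider part holds the densest bases more easily, so these values are a description. Tlx2 and Tlx3 were the members with the CpG-richest EZHIP peaks, at 7.67 and 6.82 CpG per 100 bases, and the lowest were Gsx2, at 0.668, and Nkx2-1, at 0.901. Among 22 control peaks at members with both other peaks, the densest 1000 bases lay in the H3.3 K27M peak at 20 and in the EZHIP peak at 7. All 7 were in the H3.3 K27M peak as well.

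The 4 members with the shortest EZHIP peaks are shown at sequence level, and were chosen for display after their values were seen. For each gene a stretch of the EZHIP peak comes first, taken as near the middle as untranslated regions allowed, which at Gsx2 was past the middle. It lay in the peaks of all 3 lines. The 200 bases with the most CpG at the densest part of the control peak come next, a stretch that lay in the control and H3.3 K27M peaks and outside the EZHIP peak. Because the second stretch was picked for its CpG, its higher count is given by the choice and is no result. Untranslated regions were left out in choosing both, and CpG is again in capitals, on mm9 and the strand of the gene.
Bsx, EZHIP peak, chr9:40684850-40685149, + strand: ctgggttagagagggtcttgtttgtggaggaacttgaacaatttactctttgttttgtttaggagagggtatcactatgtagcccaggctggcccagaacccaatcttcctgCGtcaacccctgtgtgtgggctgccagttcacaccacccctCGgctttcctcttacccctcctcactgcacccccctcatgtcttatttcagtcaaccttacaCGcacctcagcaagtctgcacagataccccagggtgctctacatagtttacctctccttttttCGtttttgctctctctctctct
Bsx, most CpG, chr9:40686084-40686283, + strand: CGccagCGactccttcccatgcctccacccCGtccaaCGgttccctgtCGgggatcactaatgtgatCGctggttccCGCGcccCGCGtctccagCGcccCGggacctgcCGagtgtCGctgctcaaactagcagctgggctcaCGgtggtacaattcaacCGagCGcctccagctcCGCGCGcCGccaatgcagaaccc
Emx1, EZHIP peak, chr6:85139750-85140049, + strand: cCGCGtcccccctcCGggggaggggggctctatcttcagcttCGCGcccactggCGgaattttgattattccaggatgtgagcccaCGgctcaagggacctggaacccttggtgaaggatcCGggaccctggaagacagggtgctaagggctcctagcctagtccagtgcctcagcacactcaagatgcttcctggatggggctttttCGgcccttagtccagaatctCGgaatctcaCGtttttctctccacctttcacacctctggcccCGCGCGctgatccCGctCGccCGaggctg
Emx1, most CpG, chr6:85137983-85138182, + strand: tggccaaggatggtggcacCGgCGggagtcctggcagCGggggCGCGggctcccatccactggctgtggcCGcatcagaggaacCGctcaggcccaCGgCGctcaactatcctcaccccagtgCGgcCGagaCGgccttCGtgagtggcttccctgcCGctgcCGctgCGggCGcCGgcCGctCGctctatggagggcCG
Gsx2, EZHIP peak, chr5:75473919-75474168, + strand: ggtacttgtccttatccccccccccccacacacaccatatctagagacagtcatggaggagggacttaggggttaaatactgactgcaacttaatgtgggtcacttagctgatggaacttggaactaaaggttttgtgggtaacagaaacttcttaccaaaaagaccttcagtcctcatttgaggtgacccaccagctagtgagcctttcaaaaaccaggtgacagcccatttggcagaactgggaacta
Gsx2, most CpG, chr5:75471844-75472043, + strand: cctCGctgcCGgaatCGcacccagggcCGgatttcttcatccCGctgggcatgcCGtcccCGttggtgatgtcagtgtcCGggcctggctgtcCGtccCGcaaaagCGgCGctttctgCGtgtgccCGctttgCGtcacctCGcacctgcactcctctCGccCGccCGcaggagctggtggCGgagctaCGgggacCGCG
Nkx3-2, EZHIP peak, chr5:42156650-42156949, - strand: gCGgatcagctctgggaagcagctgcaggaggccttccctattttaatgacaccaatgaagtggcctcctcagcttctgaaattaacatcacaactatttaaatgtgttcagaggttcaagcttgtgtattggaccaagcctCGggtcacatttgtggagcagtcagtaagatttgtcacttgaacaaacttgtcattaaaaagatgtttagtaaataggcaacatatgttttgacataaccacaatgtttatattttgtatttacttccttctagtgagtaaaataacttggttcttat
Nkx3-2, most CpG, chr5:42154984-42155183, - strand: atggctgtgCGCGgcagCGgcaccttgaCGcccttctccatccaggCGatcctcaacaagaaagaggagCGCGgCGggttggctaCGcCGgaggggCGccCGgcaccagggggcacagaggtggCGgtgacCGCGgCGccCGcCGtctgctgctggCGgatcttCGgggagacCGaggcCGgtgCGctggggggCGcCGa

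At Bsx the EZHIP stretch held 4 CpG in 300 bases of intron, and the CpG-rich stretch, just past the end of the gene, held 21 in 200 bases. At Gsx2 the EZHIP stretch, which begins where the annotated gene ends, held 0 CpG in 250 bases, against 23 in 200 bases of coding sequence. At Nkx3-2 the EZHIP stretch lay upstream of the gene, at positions -1214 to -915 relative to the start, and held 2 CpG in 300 bases, against 25 in 200 bases of coding sequence. At Emx1 the counts lay closer, with 17 CpG in 300 bases of intron against 21 in 200 bases of coding sequence. Over the whole EZHIP peak, CpG per 100 bases was 1 at Bsx, 0.668 at Gsx2 and 1.38 at Nkx3-2, each below the uncovered part of the control peak (2.73, 2.2 and 2.96). At Emx1 it was 5.01, above the uncovered part (2.92).

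Members that neighbour each other did not always share a fate. Gsx1, Pdx1 and Cdx2 form the ParaHox cluster on chromosome 5, where the start of Cdx2 lies 37.3 kb from that of Pdx1 and the start of Gsx1 lies 81.3 kb from it. Each had its own control peak, each had an H3.3 K27M peak, and an EZHIP peak of 1399 bases was present at Pdx1 alone. Lbx1 and Tlx1, 86.6 kb apart on chromosome 19, had EZHIP coverage of 18199 and 4599 bases with H3.3 K27M coverage of 20999 and 17399 bases. Tlx2 and Lbx2, 16.1 kb apart on chromosome 6, had peaks in all 3 lines and in the control alone. Nkx2-1 had peaks in all 3 lines and Nkx2-9, 76.4 kb away on chromosome 12, had none.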

How the data were processed

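The authors aligned reads to mm9 with bowtie1 (Bowtie 1.0.0 in the submitters' processing notes) and called broad RING1B peaks with MOSAiCS-HMM. Each deposited list gives peak positions of 1 library, without counts, scores or p-values, so depth is unknown. The deposited positions of 1418 peaks in the 3 lists are in bases, on bins of 200 bases, and peak width (end minus start) is the only measure, described here as a ratio or fold between lines. The study's methods give a minimum peak size of 1000 bases for RING1B, whereas the EZHIP and H3.3 K27M lists hold peaks from 399 bases, so the settings behind these lists are uncertain. The authors' other outputs were not used.

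Samples were grouped by the cell type in the labels. Peaks were assigned to genes of GENCODE vM1 (NCBIM37, the assembly behind mm9) when they overlapped the gene body or lay within 5000 bases of its 5′ end, and the bases of all assigned peaks were summed. The assignment of peaks to genes was tested on simulated data. CpG was counted in NCBIM37, in control peaks and in the 1000 bases around each start. Python 3.11.15, numpy 2.4.6, scipy 1.17.1 and matplotlib 3.10.9 were used. Shares carry 95% Wilson intervals. With 1 library per group no p-value was computed.

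Members, gene lists and settings were chosen with earlier results of these data known. Every member was named with its lines, with values for members with peaks in all 3 lines and for the 10 widest of those that lacked a peak in a transduced line. The smaller ones were added after their values were seen, as were the EZHIP-peak and CpG-rich sequences. Upstream sequence was shown for the member with the most control bases in each class. Of 54 LIM, paired-like, POU and sine oculis-type genes listed, 53 were in the annotation. The alternatives were other distances to the start, minimum widths, equal numbers or the widest 50% of peaks, merged peaks, autosomes only, the widest assigned peak, bases near the start and shared peaks counted once. Start coverage at other widths, the ratios over all bases inside the control peak and those of the comparison lists with peaks of at least 1000 bases were added after the data were seen.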

Additional observations from a re-analysis of the deposited data

Results flagged for a closer look

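At Msx1, H3.3 K27M coverage was 11999 bases, above the 11599 bases of the control, whereas the EZHIP line had no peak. It was picked out because the transduced lines moved in opposite directions from the control. Of the H3.3 K27M bases, 10799 lay inside the control peak. The excess is 2 bins of 200 bases, there was 1 library per line, and the difference was not tested.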

How the results depend on the processing

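The 7 main results were recomputed under 13 alternatives, giving 59 values. Of these 52 stayed within 1.5 times the value reported and 7 moved further, and the cause was not tested beyond what each setting removes. A change of direction was defined for the ratios alone, and 0 were seen. Some settings could change nothing, so the 52 overstates how much was tried. No member had more than 1 assigned peak in a line, so taking the widest left every ratio as it was. Cdx4, the member on chromosome X, had no peak, so the autosomes alone gave the same values. The number of members with an EZHIP peak, 24 as reported, was 9 when the peak had to cover the gene start itself, 9 with peaks of at least 5000 bases and 13 with the widest 50% of each list. The median ratio of EZHIP to control bases, 0.204 as reported, was 0.542 for peaks on the start itself, 0.421 with peaks of at least 1000 bases, 0.618 with peaks of at least 5000 bases and 0.509 with the widest 50% of each list. The width settings leave out the short EZHIP peaks, and the start setting leaves out peaks beside the start of any width. With all bases inside the control peak counted, a choice made after the data were seen, the ratio was 0.224. The order of the lines, with the most members in the control list and the fewest in the EZHIP list, held under all 9 alternatives for the presence of a peak, although with the 286 widest peaks of each line the control and H3.3 K27M counts came to 34 and 33, against 23 for EZHIP. No paired analysis was possible because each group had 1 library and no test was made.

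The lists hold no score, read count or control for depth, so the absence of a listed peak gives no upper limit on RING1B at a member. Each line is 1 library, and line, library and peak calling cannot be told apart. EZHIP and H3.3 K27M peaks reach down to 399 bases, below the minimum of 1000 bases in the methods, and the control list starts at 1199.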
